A study of Mus musculus with 4 samples.

Results

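The genes of retinoid handling described here are 9 members chosen by symbol, out of 24421 gene rows in each count table. They were chosen with earlier results of these data known. They are the uptake receptor gene Stra6, the retinal reductase gene Dhrs3, the synthesis genes Aldh1a1, Aldh1a2 and Aldh1a3, the binding protein genes Crabp1 and Crabp2, the receptor gene Rarb and the breakdown gene Cyp26b1. All 9 were found, lie on autosomes and had enough counts to be tested. RNA came from C57BL/6J mouse neural stem cells, dissociated from the cerebral cortex at embryonic day 17 and grown for 1 day with 10 ng/mL each of bFGF and EGF. The 4 libraries form 2 groups of 2. The libraries labelled Nestin-Cre carry the genotype Prrc2bf/f; Nestin-Cre, in which the recombinase Cre is under Nestin control and so acts in neural progenitors. The control libraries carry the genotype Prrc2bf/f, so floxed Prrc2b alleles are shared by both groups and a Cre control without floxed alleles is not among them.

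Retinoic acid is made inside cells from vitamin A. Retinol, which STRA6 can take up from its serum carrier, is oxidized to retinal, DHRS3 turns retinal back into retinol, and the ALDH1A enzymes oxidize retinal irreversibly to retinoic acid. The acid is held in the cytosol by CRABP proteins, acts in the nucleus through retinoic acid receptors paired with retinoid X receptors, and is inactivated by CYP26 enzymes. In the embryonic forebrain the meninges are known as a site of Aldh1a2 expression and the lateral ganglionic eminence as a site of Aldh1a3 expression. Rarb and Dhrs3 are known in several tissues as genes that retinoic acid induces.

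Promoter sequences (RefSeq, GRCm38.p6) were at hand for 7 of the 9 members, in 13 windows running from 250 bases before to 50 bases after an annotated start. Aldh1a3 and Crabp2 had no entry. The windows were searched on both strands for direct repeats of the receptor hexamer AGGTCA, its variant AGTTCA and the forms of both that begin with G (GGGTCA for the first and GGTTCA for the other), with spacers of 1, 2 or 5 bases and overlaps allowed. Among the members the search found 1 repeat, with a spacer of 5 bases, in the Rarb window (chr14:16575427-16575726, minus strand). It covers the bases 53 to 37 upstream of the annotated start in that window. This start lies inside the gene, whose outermost annotated start is at chr14:16819156. Among all 32851 windows of the same length, 32 (0.0974%) held a repeat with a spacer of 5 bases, 88 (0.268%) one with a spacer of 2 and 73 (0.222%) one with a spacer of 1. The Rarb window is shown because it holds this repeat, which is in capitals.
Rarb: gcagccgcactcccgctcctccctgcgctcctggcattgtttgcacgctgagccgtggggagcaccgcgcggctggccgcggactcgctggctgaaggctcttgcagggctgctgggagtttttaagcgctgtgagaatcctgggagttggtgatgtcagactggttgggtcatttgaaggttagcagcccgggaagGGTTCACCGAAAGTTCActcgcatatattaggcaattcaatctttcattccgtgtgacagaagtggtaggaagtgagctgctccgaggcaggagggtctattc
The windows of Aldh1a2 (chr9:71215539-71215838, plus strand) and of the downstream annotated start of Aldh1a1 (chr19:20601718-20602017, plus strand) are shown because these genes moved in opposite directions below. Capitals mark CG dinucleotides. Aldh1a2 has 50 of them and 78.0% G and C, Aldh1a1 has 1 and 47.0%, and the medians over all windows are 7 and 52.7%. The other Aldh1a1 window has 3 and 43.3%. In windows of the other genes called lower below, CG dinucleotides number 5 to 10 for Stra6 and 9 to 21 for Dhrs3. Crabp1 and Rarb have 17 each. A link between this number and the direction of change was not tested.
Aldh1a2: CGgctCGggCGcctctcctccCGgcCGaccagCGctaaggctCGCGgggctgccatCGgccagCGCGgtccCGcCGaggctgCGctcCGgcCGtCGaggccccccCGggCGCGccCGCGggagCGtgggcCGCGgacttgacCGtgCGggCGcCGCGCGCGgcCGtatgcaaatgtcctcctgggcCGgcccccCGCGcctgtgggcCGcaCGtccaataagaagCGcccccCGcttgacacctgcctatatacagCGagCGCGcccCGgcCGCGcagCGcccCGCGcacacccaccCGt
Aldh1a1: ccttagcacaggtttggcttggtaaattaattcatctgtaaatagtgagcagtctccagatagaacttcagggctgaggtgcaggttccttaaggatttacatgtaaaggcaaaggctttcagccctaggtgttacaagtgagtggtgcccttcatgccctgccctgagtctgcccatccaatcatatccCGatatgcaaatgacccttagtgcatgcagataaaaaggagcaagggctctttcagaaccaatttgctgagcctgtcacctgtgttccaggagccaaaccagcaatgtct
None of the 12 member windows other than that of Rarb held such a repeat, which says only that these letters are not in these windows.

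Gene counts per library ran from 25936794 to 28263272, and 3 counts stood for 0.106 to 0.115 CPM (counts-per-million). Prrc2b itself had 575 and 573 CPM in the libraries labelled Nestin-Cre, against 588 and 594 CPM in control (log2 fold change -0.04 ± 0.02 SE, edgeR adjusted p = 0.134). Which exon loxP flanks was not stated in the sources used, so the genotype cannot be read from this total. Ddx3y, Eif2s3y, Kdm5d and Uty, all Y-linked, had 0 counts in both libraries labelled Nestin-Cre and between 180 and 667 counts in each control library. Xist, the RNA of the inactive X chromosome in female cells, had 2209 and 2119 CPM in the libraries labelled Nestin-Cre and, beside those Y-linked counts, 1673 and 1615 CPM in control. The sex makeup of the libraries and the genotype therefore cannot be told apart in any value below. The labelled cell type was checked against 9 neural stem cell markers, all of which were detected. Sox2 averaged 443 ± 0.753 CPM in the libraries labelled Nestin-Cre and 445 ± 19.0 CPM in control (SD, n = 2 each). Other markers of this list differed between the groups. Nes was lower, at 540 ± 0.279 CPM in the libraries labelled Nestin-Cre and 630 ± 2.28 CPM in control. Hes5 was higher, at 62.1 ± 6.74 CPM in the libraries labelled Nestin-Cre and 33.5 ± 2.07 CPM in control. The labels do not say whether replicates are separate embryos or cultures, so the p-values rest on a spread between libraries that may be technical. Log2 fold changes are the libraries labelled Nestin-Cre over control, ± SE, with 95% intervals of the fold from the same fit.

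Most of the retinoid genes were lower in the libraries labelled Nestin-Cre. Of the 9 members 6 were lower (Stra6, Dhrs3, Aldh1a2, Aldh1a3, Crabp1 and Rarb), 1 was higher (Aldh1a1), and Crabp2 and Cyp26b1 did not pass the test (edgeR quasi-likelihood test, adjusted p under 0.05 over 15012 genes). Across all genes tested, 33.1% passed in either direction, 18.1% as lower and 15.1% as higher. The median log2 fold change of the members was -0.61, and that of all tested genes was 0.0047. For 8 of the 9 members the groups did not overlap, against 64.9% of all tested genes. Because the members were chosen with earlier results known, these contrasts with all genes may be partly set by that choice. They are not a test of the members as a set. The members are sparse transcripts. Counted per kilobase of exon, each lay below the median of tested genes, between the 5.61th and the 47.4th percentile.

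**Figure D1:**
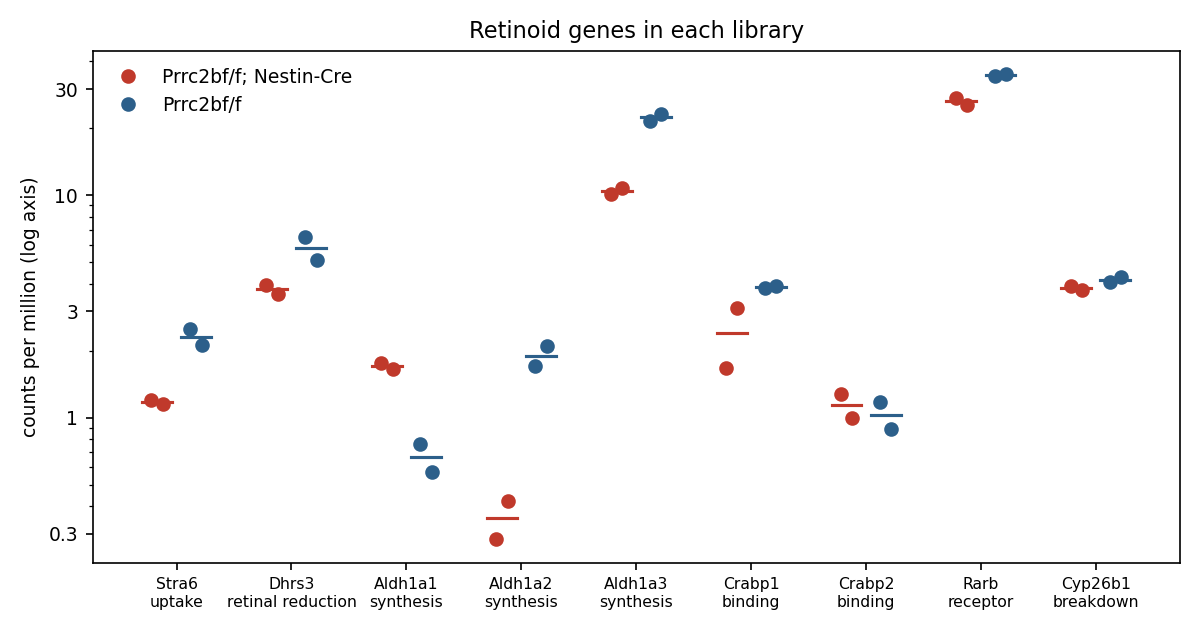
CPM (log axis) of the 9 retinoid genes in each library, with Prrc2bf/f; Nestin-Cre libraries in red to the left of Prrc2bf/f control libraries in blue; each point is 1 library and each bar the group mean. Aldh1a1 lies higher in the red libraries, Crabp2 overlaps between the groups, and the other 7 lie lower in red.

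Among the members, the synthesis genes had the largest fold changes in the fit of all 4 libraries. Aldh1a3 was not separated from the uptake gene Stra6 in this order. Its interval (0.415 to 0.522) lay inside that of Stra6 (0.365 to 0.718). Without control replicate 2 the log2 fold change was -1.05 for Aldh1a3 and -1.08 for Stra6. Aldh1a2, whose enzyme is the main source of retinoic acid in the early mouse embryo, had 0.283 and 0.423 CPM in the libraries labelled Nestin-Cre (8 and 11 counts), against 1.70 and 2.09 CPM in control (45 and 59 counts). Both libraries labelled Nestin-Cre lay well below both controls. The log2 fold change was -2.43 ± 0.34, a ratio of 0.186 with an interval of 0.115 to 0.30 (edgeR adjusted p = 3.35e-07), and 99.5% of tested genes had an absolute change no larger than this one. In bulk RNA, fewer cells of a type and less RNA per cell cannot be told apart.

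Aldh1a3, the most abundant of the synthesis genes, had 10.1 and 10.8 CPM in the libraries labelled Nestin-Cre, against 21.6 and 23.2 CPM in control. Replicates lay close together and the groups far apart. The log2 fold change was -1.10 ± 0.08, a ratio of 0.465 with an interval of 0.415 to 0.522 (edgeR adjusted p = 5.92e-14). Its counts (281 to 655 per library) make it the best measured of the synthesis genes. Of the 50-base words in its transcripts 1.15% also occur in transcripts of other genes.

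Aldh1a1 moved the other way. It had 1.77 and 1.65 CPM in the libraries labelled Nestin-Cre (50 and 43 counts), against 0.757 and 0.568 CPM in control (20 and 16 counts). The groups did not overlap. The log2 fold change was 1.37 ± 0.30, a ratio of 2.59 with an interval of 1.70 to 3.93 (edgeR adjusted p = 0.000351). Of its 50-base words 3.06% are shared with the paralog Aldh1a7, which had 4 and 8 counts in the libraries labelled Nestin-Cre and 1 and 7 in control, so a few reads could have been split between them.

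Together the transcripts of the synthesis genes came to 2.67 and 2.86 CPM per kilobase of exon in the libraries labelled Nestin-Cre, against 5.58 and 6.07 in control. Aldh1a3 made up 81.9% and 81.8% of this sum in the libraries labelled Nestin-Cre and 83.8% and 82.9% in control, nearly the same share. The remainder was composed differently. Aldh1a1 held 13.4% and 11.7% of the sum in the libraries labelled Nestin-Cre, against 2.75% and 1.89% in control. Aldh1a2 held 4.69% and 6.53% in the libraries labelled Nestin-Cre, against 13.5% and 15.2% in control. No test was run on these shares, which have 2 libraries a group.

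**Figure D2:**
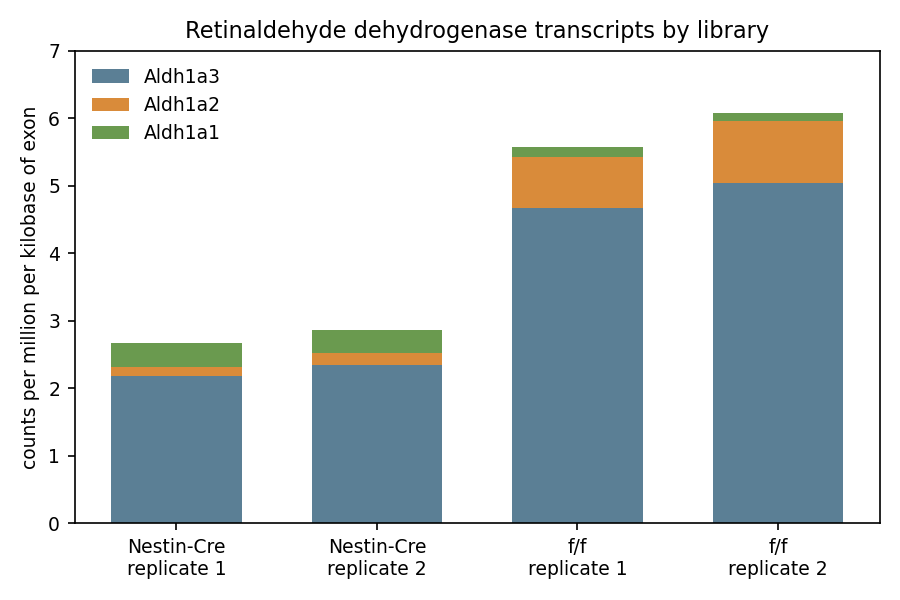
CPM per kilobase of exon of Aldh1a3, Aldh1a2 and Aldh1a1, stacked for each library, Prrc2bf/f; Nestin-Cre on the left and Prrc2bf/f on the right. The stacks reach 2.67 and 2.86 on the left and 5.58 and 6.07 on the right, with Aldh1a3 the largest piece of each.

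The uptake gene and the retinal reductase gene were both lower. Stra6, the membrane receptor for retinol-binding protein, had 1.2 and 1.15 CPM in the libraries labelled Nestin-Cre, against 2.50 and 2.13 CPM in control. The groups were clearly apart. Its log2 fold change was -0.97 ± 0.24, a ratio of 0.512 with an interval of 0.365 to 0.718 (edgeR adjusted p = 0.00162). With DESeq2 the change was -0.97 and missed the threshold (adjusted p = 0.0517). Dhrs3 had 3.96 and 3.58 CPM in the libraries labelled Nestin-Cre, against 6.47 and 5.11 CPM in control, whose replicates spread more widely. Its log2 fold change was -0.61 ± 0.15, a ratio of 0.655 with an interval of 0.530 to 0.809 (edgeR adjusted p = 0.00146). Without control replicate 1, the higher of the controls, the change was -0.44 and did not pass (edgeR adjusted p = 0.0662).

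The binding proteins differed in how firmly they could be read. Crabp1, a cytosolic carrier of retinoic acid, had 1.66 and 3.12 CPM in the libraries labelled Nestin-Cre (47 and 81 counts), against 3.82 and 3.90 CPM in control. The libraries labelled Nestin-Cre lay far from each other and 1 of them lay near the controls. The log2 fold change was -0.71 ± 0.20 (edgeR adjusted p = 0.00514). Without Nestin-Cre replicate 1 the change was -0.31 and did not pass (edgeR adjusted p = 0.338), and without Nestin-Cre replicate 2 it was -1.21, so the size of this decrease rests on which library is used. Crabp2, a carrier that passes retinoic acid to its nuclear receptors, had 1.27 and 1.00 CPM in the libraries labelled Nestin-Cre, against 1.17 and 0.887 CPM in control. The groups overlapped, and the ratio of 1.11 had an interval of 0.732 to 1.69 (edgeR adjusted p = 0.739), wide enough to hold a decrease or an increase.

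Rarb, the receptor gene whose window at an internal start is shown above, had 27.4 and 25.4 CPM in the libraries labelled Nestin-Cre. In control it had 34.3 and 35.1 CPM. These counts cover the whole gene, not that start alone. The groups did not overlap, and the decrease was modest. The log2 fold change was -0.39 ± 0.06, a ratio of 0.762 with an interval of 0.701 to 0.828 (edgeR adjusted p = 1.27e-06). Of its exon sequence 34.1% overlaps exons of Top2b, a topoisomerase gene on the opposite strand. Top2b, named here after its values were seen, had 325 and 324 CPM in the libraries labelled Nestin-Cre, against 347 and 336 CPM in control. Its log2 fold change was -0.07 ± 0.03 (edgeR adjusted p = 0.0263). Whether counting used the strand is not stated in the sources used, and the part of Top2b reads in the Rarb counts was not tested.

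Cyp26b1, which clears retinoic acid, had 3.89 and 3.73 CPM in the libraries labelled Nestin-Cre, against 4.05 and 4.29 CPM in control. Its libraries did not overlap, but the difference was small. The ratio of 0.913 had an interval of 0.735 to 1.14 and did not pass (edgeR adjusted p = 0.564). Per kilobase of exon, Aldh1a3 stood at 3.00 and 3.36 times the level of Cyp26b1 in the libraries labelled Nestin-Cre, against 6.18 and 6.27 times in control. This ratio of levels was lower in both libraries labelled Nestin-Cre.

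The order of the members by level per kilobase of exon shifted between the groups. In the libraries labelled Nestin-Cre it ran from Rarb (5.01 CPM per kilobase) through Crabp1 (2.98), Aldh1a3 (2.26), Dhrs3 (1.29), Crabp2 (0.860), Cyp26b1 (0.712), Aldh1a1 (0.347) and Stra6 (0.202) to Aldh1a2 (0.156). Crabp1 and Aldh1a3 overlapped between libraries there, and the other neighbours did not. In control it ran from Rarb (6.59 CPM per kilobase) through Aldh1a3 (4.85), Crabp1 (4.82), Dhrs3 (1.98), Aldh1a2 (0.839), Cyp26b1 (0.780), Crabp2 (0.779) and Stra6 (0.397) to Aldh1a1 (0.134). In control, Aldh1a3 overlapped with Crabp1, Aldh1a2 with Cyp26b1 and Cyp26b1 with Crabp2, and the other neighbours did not overlap. Aldh1a2 thus stood at rank 9 in the libraries labelled Nestin-Cre and at rank 5 in control. The level of Rarb per kilobase counts the exon sequence shared with Top2b.

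The other genes of the pathway moved both ways. Of 31 listed genes 21 were tested, of which 5 were higher, 5 were lower and 11 did not pass, with a median log2 fold change of 0.0031. With DESeq2, 3 were called higher and 3 lower. Leaving out any 1 library leaves a single library in its group. A call lost in such a fit, here or for other genes, therefore cannot be laid on the omitted library alone. The receptors of the same family as Rarb were lower by similar amounts. Rara had 25.5 and 27.2 CPM in the libraries labelled Nestin-Cre, against 33.8 and 34.9 CPM in control (log2 fold change -0.39 ± 0.06, edgeR adjusted p = 1.6e-06). Rarg had 9.69 and 10.4 CPM in the libraries labelled Nestin-Cre, against 12.8 and 14.0 CPM in control (-0.42 ± 0.09, edgeR adjusted p = 0.00048). The intervals of the ratio were 0.704 to 0.831 for Rara and 0.656 to 0.853 for Rarg, beside 0.701 to 0.828 for Rarb. Against a 1.2-fold change none of the 3 passed, with adjusted p of 0.0729 for Rara, 0.164 for Rarg and 0.0611 for Rarb. Their partners, the retinoid X receptors, did not pass. The ratio was 0.918 for Rxra (interval 0.837 to 1.01) and 1.00 for Rxrb (interval 0.941 to 1.07).

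Several retinoid carriers differed between the groups. Ttr, which carries retinol-binding protein and thyroid hormone and marks choroid plexus epithelium, was higher, at 1271 and 1290 CPM in the libraries labelled Nestin-Cre, against 178 and 186 CPM in control (2.81 ± 0.02, edgeR adjusted p = 8.23e-44). Fabp5, a fatty acid carrier that can also pass retinoic acid to a nuclear receptor, was slightly higher, at 506 ± 4.33 CPM in the libraries labelled Nestin-Cre and 430 ± 3.02 CPM in control (SD, n = 2 each). Rlbp1, a carrier of retinal known from the eye, changed by -0.11 ± 0.04 (edgeR adjusted p = 0.0338). With DESeq2 it did not pass (adjusted p = 0.237). It missed the threshold when Nestin-Cre replicate 1, Nestin-Cre replicate 2 or control replicate 1 was left out, with adjusted p from 0.0649 to 0.336.

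Most enzymes that interconvert retinol and retinal differed by small amounts, with Rdh1 as an exception. Rdh10, the retinol dehydrogenase needed for retinoic acid in the mouse embryo and named here outside the rule, had 12.8 and 13.2 CPM in the libraries labelled Nestin-Cre, against 12 and 13.9 CPM in control. The groups overlapped, and the ratio of 1.00 had an interval of 0.883 to 1.14 (edgeR adjusted p = 0.986). Rdh5 (0.38 ± 0.12, edgeR adjusted p = 0.0145) and Adh5 (0.13 ± 0.03, edgeR adjusted p = 0.00165) were higher and Dhrs4 was lower (-0.27 ± 0.07, edgeR adjusted p = 0.00223). With DESeq2 Adh5 still passed (adjusted p = 0.0331), while Dhrs4 (adjusted p = 0.0661) and Rdh5 (adjusted p = 0.177) did not. The Rdh5 call was lost without Nestin-Cre replicate 1 (adjusted p = 0.118) and without control replicate 1 (adjusted p = 0.0632). Rdh1 passed at 9 to 24 counts per library (1.13 ± 0.40, edgeR adjusted p = 0.0257), but it missed the threshold without any 1 of the 4 libraries (adjusted p from 0.0718 to 0.151). Rdh11 (60.4 ± 1.3 CPM in the libraries labelled Nestin-Cre and 57.1 ± 2.38 CPM in control; SD, n = 2 each) and Rdh13 (31.4 ± 1.57 CPM in the libraries labelled Nestin-Cre and 31.3 ± 0.640 CPM in control; SD, n = 2 each) did not pass.

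**Figure D3:**
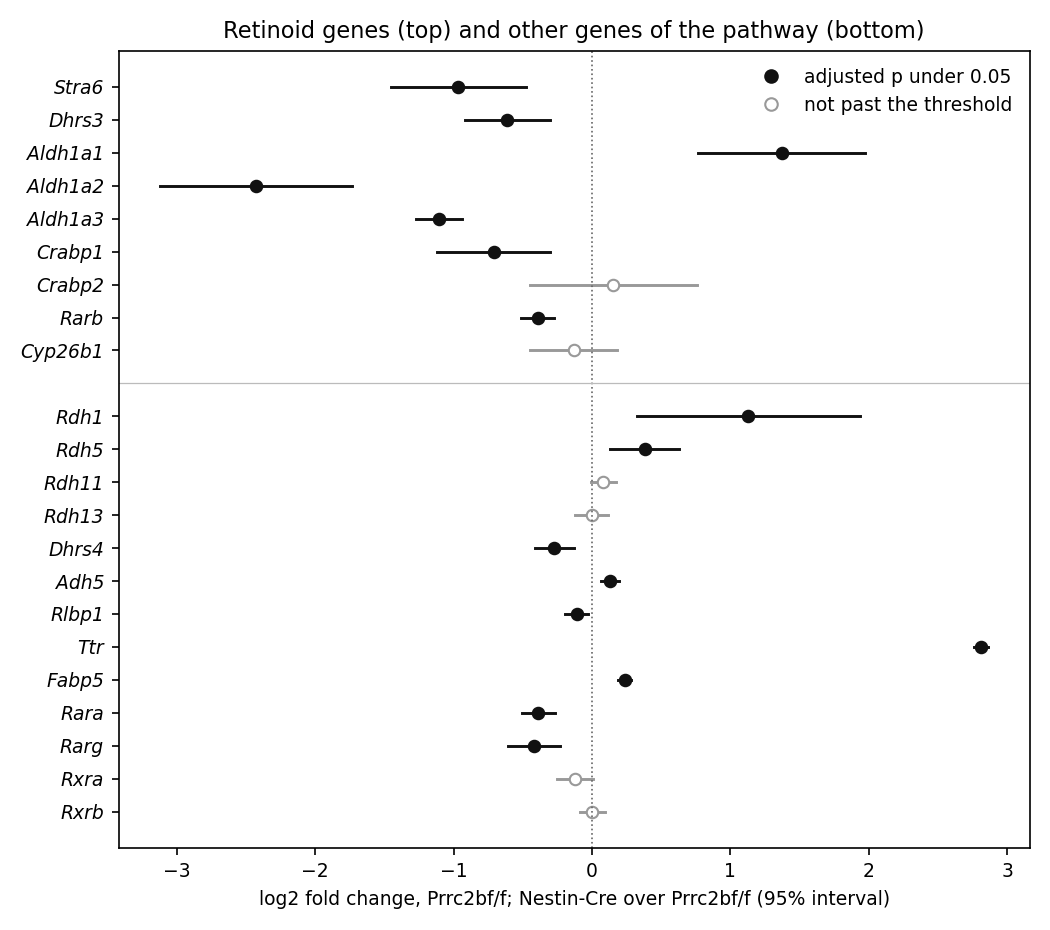
Log2 fold change, Prrc2bf/f; Nestin-Cre over Prrc2bf/f, with 95% intervals from the edgeR fit, for the 9 retinoid genes above the line and, below it, other pathway genes that passed the test or averaged above 20 CPM, 1 of which is not shown. Filled points passed at adjusted p under 0.05: Aldh1a2 (-2.43) lies farthest left, Ttr (2.81) farthest right, and Rarb, Rara and Rarg lie near -0.4.

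Genes known elsewhere to respond to retinoic acid showed no common direction. Of 16 listed genes 9 were tested, of which 2 were higher, 3 were lower and 4 did not pass, with a median log2 fold change of -0.10. Of the 7 that were not tested, 5 had 0 counts in every library, among them Hoxb1 and Cdx1. Tgm2, a transglutaminase gene, was lower, at 1.56 and 1.15 CPM in the libraries labelled Nestin-Cre, against 3.22 and 3.51 CPM in control (log2 fold change -1.30 ± 0.21, edgeR adjusted p = 5.99e-06). Small decreases passed for the homeobox gene Meis2 (-0.14 ± 0.03, edgeR adjusted p = 0.000343) and the nuclear receptor corepressor gene Nrip1 (-0.15 ± 0.05, edgeR adjusted p = 0.017). The Nrip1 call was lost without Nestin-Cre replicate 1, Nestin-Cre replicate 2 or control replicate 2 (adjusted p from 0.0502 to 0.116). The nuclear receptor gene Nr2f1 was higher (0.14 ± 0.04, edgeR adjusted p = 0.00816), as was Rarres1 (0.67 ± 0.21, edgeR adjusted p = 0.0146). Both of these calls were lost without Nestin-Cre replicate 2 (adjusted p of 0.0621 for Nr2f1 and 0.160 for Rarres1), and the Rarres1 call also without control replicate 1 (adjusted p = 0.191). The homeobox gene Meis1 had a change of -0.13 ± 0.06 (edgeR adjusted p = 0.121), which passed without Nestin-Cre replicate 1 at -0.22 (adjusted p = 0.0342).

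Markers of cells that make or carry retinoids outside the cortical wall also differed between the groups. Over all tested genes 33.1% passed in either direction. Of the tested markers, 80.0% passed in the meningeal fibroblast list, 85.7% in the choroid plexus list and 50.0% in the ganglionic eminence list. These lists were not tested as sets. All 10 meningeal fibroblast markers were detected, none at 0. Of these, 6 were lower and 2 higher, and their summed level was 92.0 and 99.2 CPM in the libraries labelled Nestin-Cre, against 203 and 201 CPM in control. Col3a1 averaged 8.99 ± 0.612 CPM in the libraries labelled Nestin-Cre and 65.9 ± 2.05 CPM in control, and Ogn 7.16 ± 0.226 CPM in the libraries labelled Nestin-Cre and 1.70 ± 0.104 CPM in control (SD, n = 2 each). Foxc1, a transcription factor of the meninges, changed by -0.65 ± 0.17 (edgeR adjusted p = 0.00289). Of 14 choroid plexus markers, all detected, 12 were higher and none lower. Otx2 did not pass, at 21.8 ± 0.455 CPM in the libraries labelled Nestin-Cre and 21.5 ± 0.285 CPM in control (SD, n = 2 each). Its ratio of 1.01 had an interval of 0.919 to 1.11. Prlr did not pass either (log2 fold change -0.86 ± 0.39, edgeR adjusted p = 0.0905), with both libraries labelled Nestin-Cre below both controls. The sum of the 14 markers, most of it Ttr, was 1489 and 1502 CPM in the libraries labelled Nestin-Cre, against 265 and 272 CPM in control. Of 10 ganglionic eminence and interneuron markers, all detected, 5 were lower and none higher. Their sum was 150 and 162 CPM in the libraries labelled Nestin-Cre, against 182 and 180 CPM in control. The 5 lower markers were Sp8 (-0.45 ± 0.10), Gad2 (-0.38 ± 0.06), Dlx2 (-0.24 ± 0.08), Dlx1 (-0.20 ± 0.07) and Gad1 (-0.15 ± 0.04). Gsx2, which marks the lateral ganglionic eminence, was among those that did not pass, with a change of 0.0026 ± 0.15 (edgeR adjusted p = 0.992). The part of these cell types in the changes of Aldh1a2, Aldh1a3, Aldh1a1 or the other members was not tested.

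Markers of further cell types that the dissociated cortex could hold were measured as well. The share of tested markers that passed was 83.3% for microglia and 66.7% for neural stem cells. It was 57.1% each for mural and endothelial markers and 40.0% for Cajal-Retzius markers, beside 33.1% of all tested genes. Mural markers summed to 130 and 133 CPM in the libraries labelled Nestin-Cre and to 131 CPM in each control library, with 1 higher and 3 lower of 7 tested. Notch3 made up most of that sum, at 104 ± 1.59 CPM in the libraries labelled Nestin-Cre and 101 ± 0.972 CPM in control (SD, n = 2 each). Acta2 was the mural marker called higher, at 11.8 ± 0.241 CPM in the libraries labelled Nestin-Cre and 7.95 ± 1.01 CPM in control. Tagln did not pass (log2 fold change 0.10 ± 0.11, edgeR adjusted p = 0.489). The pericyte receptor gene Pdgfrb was lower, at 2.88 ± 0.0665 CPM in the libraries labelled Nestin-Cre and 8.02 ± 0.255 CPM in control, as were Rgs5 (1.52 ± 0.353 CPM in the libraries labelled Nestin-Cre and 2.64 ± 0.224 CPM in control) and Vtn (0.805 ± 0.213 CPM in the libraries labelled Nestin-Cre and 1.48 ± 0.114 CPM in control). Endothelial markers summed to 14.9 and 17.1 CPM in the libraries labelled Nestin-Cre, against 21.2 and 21.7 CPM in control, with 2 higher and 2 lower of 7 tested. Microglial markers were scarce, at 3.15 and 2.35 CPM in sum in the libraries labelled Nestin-Cre, against 6.21 and 7.56 CPM in control. Of 6 tested, 5 were lower. Among the untested ones, Aif1 had 15 and 8 counts in the libraries labelled Nestin-Cre, against 2 and 3 in control. Cx3cr1 and Tyrobp, also untested, had fewer counts in both libraries labelled Nestin-Cre than in either control library. Cajal-Retzius markers summed to 158 and 154 CPM in the libraries labelled Nestin-Cre, against 168 and 171 CPM in control, with 1 higher and 1 lower of 5 tested. Of the 9 neural stem cell markers 2 were higher (Hes1 and Hes5) and 4 lower (Nes, Vim, Slc1a3 and Prom1). Their sum was 6056 and 6058 CPM in the libraries labelled Nestin-Cre, against 7091 and 7044 CPM in control. Among these lists, no listed gene was at 0 in all 4 libraries.

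**Figure D4:**
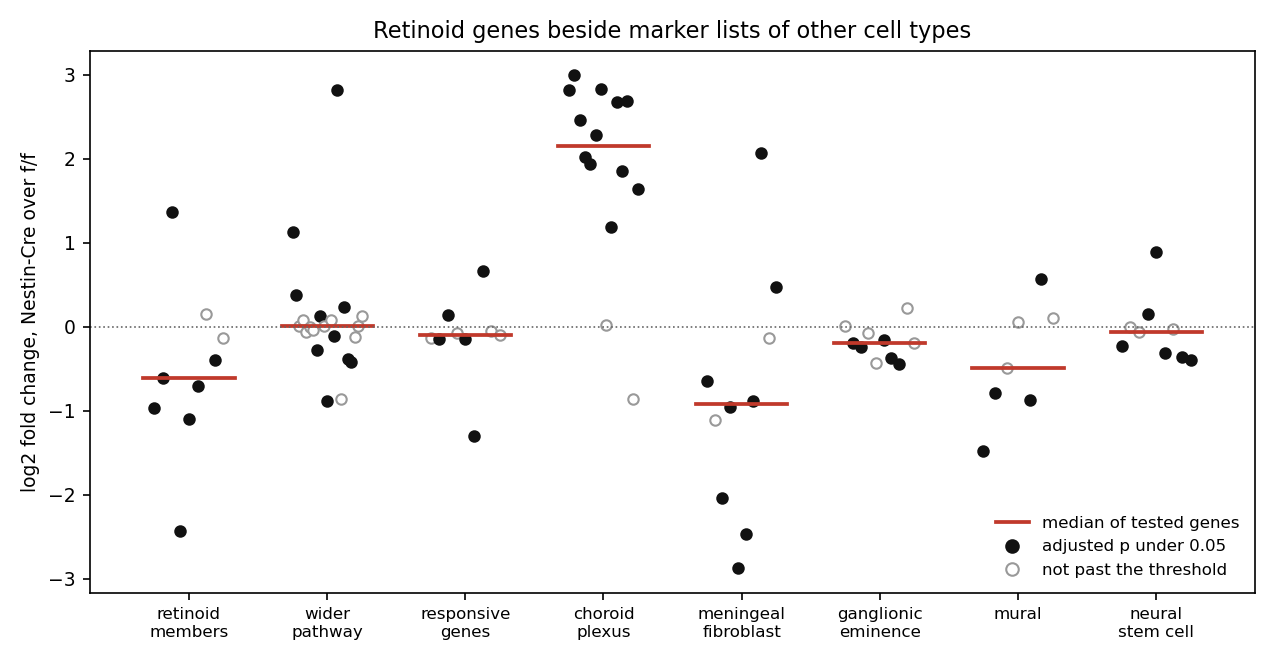
Log2 fold change, Prrc2bf/f; Nestin-Cre over Prrc2bf/f, of each tested gene of the retinoid lists and of marker lists of other cell types; filled points passed at adjusted p under 0.05 and red lines are medians of tested genes. The retinoid members have a median of -0.61, the choroid plexus markers of 2.16 and the meningeal fibroblast markers of -0.92; Ttr is in 2 of the lists.

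The pattern over the 4 libraries closest to that of Aldh1a2, among 12962 genes with a mean log2 CPM of at least 1, was that of Bcl3, at a Euclidean distance of 0.247 between centred log2 CPM values. Col1a1 (0.360) and Crispld2 (0.399) came next. Bcl3 had 4.14 and 4.69 CPM in the libraries labelled Nestin-Cre, against 21.0 and 23.7 CPM in control. With 4 libraries in 2 groups this likeness mostly measures a fold change of similar size.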

How the data were processed

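Poly(A) RNA of the 4 libraries was selected and sequenced as paired reads with dUTP strand marking, per the labels' protocols. The submitters' processing notes name the mm10 build with DESeq2 1.26.0, HISAT2 2.2.1 and HTSeq 0.12.4, without roles. Annotation and strand setting were not stated there. The authors deposited raw, unnormalized counts for each gene symbol, judged from whole numbers whose totals differ. Each table's 5 closing summary lines, holding 25.2% to 26.1% of entries, were left out.

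The comparison of genotypes used edgeR 4.0.16 (R 4.3.3) on all 4 libraries. Genes passed filterByExpr, were scaled by TMM (trimmed mean of M values) and were tested by quasi-likelihood (legacy off) with Benjamini-Hochberg adjustment over 15012 genes at 0.05. The common biological coefficient of variation was 0.0242. CPM use the scaled library sizes. SE was derived from the fold change and its F statistic. No exact permutation test of 2 against 2 libraries can pass. Positions, exon lengths and 50-base words came from GENCODE M21 (GRCm38, the assembly of mm10), in which 95.7% of symbols were found. Floors of 3 counts cover counting error only. The fit and the motif search were tested on simulated data.

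The members and lists were chosen with earlier results of these data known, so no list was tested as a set. Genes named are the members, listed pathway or responsive genes that passed or averaged above 20 CPM (1 is not reported here), Prrc2b, the marker genes of lists that moved and the 3 genes nearest in pattern to the called member with the largest change. Alternatives were scaling by upper quartile, by total count or by DESeq2-style size factors, other low-count filters (none; 1 CPM in 2 libraries with 50 counts in all), the legacy fit, robust moderation, DESeq2 1.42.0, voom of limma 3.58.1, a test against a 1.2-fold change, a replicate block and omission of each library.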

Additional observations from a re-analysis of the deposited data

How the results depend on the processing

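Over 15 alternatives the 9 members gave 135 values, of which 126 kept direction and side of the threshold. Those of Aldh1a1 (1.17 to 1.59), Aldh1a2 (-2.73 to -2.16) and Aldh1a3 (-1.16 to -1.05) did so in all 15, as did the miss of Cyp26b1. In 7 cases a call was lost, and the cause was not tested. Stra6 was lost with DESeq2 (-0.97). Crabp1 was lost with DESeq2 (-0.70), with no low-count filter (-0.71) and against a 1.2-fold change (-0.71), where Rarb (-0.39) was lost as well. With 1 library left out, Crabp1 ran from -1.21 to -0.31, Dhrs3 from -0.78 to -0.44 and Crabp2 from -0.0400 to 0.363. Crabp2, which was not called, turned to -0.0370 without Nestin-Cre replicate 1 and to -0.0400 without control replicate 2. Members lower numbered 5 to 6 with 1 library left out and 4 with DESeq2.

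Pathway genes higher numbered 3 to 4 with 1 library left out and 3 with DESeq2, and genes lower 3 with DESeq2. Responsive genes higher numbered 0 to 2 with 1 library left out and 0 with DESeq2. Against a 1.2-fold change the counts were 1 higher and 1 lower in the pathway and 0 higher and 1 lower among responsive genes. Over all genes, 2263 were higher and 2711 lower. DESeq2 gave 1055 and 1642, a test against a 1.2-fold change 279 and 760, and upper quartile scaling 2939 and 2288, so 56.2% of its calls were higher, against 45.5%. Among uncalled genes, signs turned for Rdh13 with upper quartile scaling (0.0252), total count scaling (0.0059) and the replicate block (0.00026), and with 1 library left out its range was -0.0522 to 0.0497. Rxrb ran from -0.0234 to 0.0301 and Rdh10 from -0.0945 to 0.113 with 1 library left out.

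The replicate numbers are shared only as numbers. The deviations of same-numbered libraries from their group means had a correlation of -0.0165 across 15012 genes, which are not independent replicates. With the replicate block 1 member was higher and 6 lower, and 2442 genes were higher and 2881 lower in all. With 8 to 59 counts for Aldh1a2 and 16 to 50 for Aldh1a1 per library, depth limits the precision of their ratios more than that of Aldh1a3.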

Other observations

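Several pathway genes fell below the low-count filter and were not tested. Rbp2, the intestinal cellular retinol-binding protein, had 7 and 5 counts in the libraries labelled Nestin-Cre and 0 in both control libraries. Lrat, whose enzyme stores retinol as esters, had 2 and 0 counts in the libraries labelled Nestin-Cre, against 3 in each control library. Adh7, an alcohol dehydrogenase that can oxidize retinol, had 9 and 5 counts in the libraries labelled Nestin-Cre, against 15 and 9 in control. The breakdown gene Cyp26a1 and the carotenoid-cleaving enzyme gene Bco1 had 0 counts in all 4 libraries, where 3 counts would stand for 0.106 to 0.115 CPM. The other breakdown gene of the family, Cyp26c1, had 0 and 1 counts in the libraries labelled Nestin-Cre and 0 and 1 in control, so Cyp26b1 held nearly all Cyp26 counts in both groups.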
